A study of Mus musculus with 6 samples.

Results

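The MHC class I antigen presentation genes examined here are H2-K1, H2-D1, B2m, Tap1, Tap2, Tapbp, Nlrc5, Psmb8, Psmb9 and Psmb10. They were taken by symbol, and all 10 are among the 16281 genes of the deposited count table. The RNA came from splenic CD8+ T cells of OT1 mice (strain C57BL/6, genotype Tg(TcraTcrb)1100Mjb), which carry transgenic T-cell receptor chains that recognize an ovalbumin peptide. Every culture was activated over 48 h by antibodies to CD3 and CD28 together with IL-2, after which the cells grew in IL-2 for 3 days. In 3 of them GSK2879552 (GSK), an irreversible inhibitor of the histone demethylase LSD1, was present at 0.5 μM, and the other 3 received vehicle (Veh). The paper's text gives 3 separate mice as the source of the cells, and its figure legend gives 3 mice per group. The sources do not say whether cultures with the same replicate number share a mouse. The main test has no block for replicate number, and such a block was fitted as an alternative. The paper describes the treatment as covering both activation and the growth that followed. The comparison asks whether LSD1 inhibition over the whole culture alters the RNA of the class I pathway in the T cells themselves. It cannot separate inhibition during activation from inhibition during the later growth.

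MHC class I molecules display peptides from proteins of the cell's own interior to CD8+ T cells. The proteasome cuts the proteins, and in lymphocytes and interferon-treated cells its catalytic subunits are partly replaced by the immunoproteasome subunits encoded by Psmb8 (LMP7), Psmb9 (LMP2) and Psmb10 (MECL-1). The transporter TAP, a dimer of the products of Tap1 and Tap2, carries the peptides into the endoplasmic reticulum. There tapasin (Tapbp) holds TAP next to the empty class I molecule, which consists of a heavy chain (H2-K1 or H2-D1 in this strain) and beta-2 microglobulin (B2m). NLRC5 (Nlrc5) is the transactivator that drives transcription of several of these genes, the heavy chains and B2m among them, through their proximal promoters.

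On the GRCm38.p6 assembly, 7 of the genes lie within the MHC region of chromosome 17, and B2m lies on chromosome 2 and Nlrc5 and Psmb10 on chromosome 8. Promoter windows from RefSeq, which span a transcript start and lie mostly upstream of it, matched 8 of the 10. The windows of the genes that differed between GSK and Veh (Tapbp, Psmb8 and Psmb10) and of the main genes that did not are given 5′ to 3′, so that their motifs can be compared. The Psmb9 window shares 275 bases with that of Tap1, on the opposite strand, and is not repeated. Capitals mark matches on either strand to an NF-kB-like motif (GGGA and CC with 4 bases between them), AANNGAAA (IRF-like), TGACG (as in the X2 box bound by the complex that recruits NLRC5), CCAAT (as in the Y box of the same module) and TTCNNNGAA (STAT-like), and adjacent matches run together.
H2-K1, chr17:34000298-34000597, minus strand: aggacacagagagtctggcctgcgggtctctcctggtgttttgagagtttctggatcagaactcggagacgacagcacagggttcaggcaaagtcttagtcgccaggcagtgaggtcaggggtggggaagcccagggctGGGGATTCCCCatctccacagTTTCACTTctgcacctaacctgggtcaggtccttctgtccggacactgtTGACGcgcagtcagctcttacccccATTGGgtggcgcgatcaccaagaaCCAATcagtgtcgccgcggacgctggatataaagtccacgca
H2-D1, chr17:35262844-35263143, plus strand: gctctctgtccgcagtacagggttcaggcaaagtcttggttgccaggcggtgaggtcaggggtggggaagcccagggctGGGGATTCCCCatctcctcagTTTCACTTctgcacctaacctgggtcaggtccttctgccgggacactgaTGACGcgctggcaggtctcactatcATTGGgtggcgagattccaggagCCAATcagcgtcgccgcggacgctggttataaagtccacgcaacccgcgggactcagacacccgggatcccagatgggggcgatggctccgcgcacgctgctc
B2m, chr2:122147437-122147736, plus strand: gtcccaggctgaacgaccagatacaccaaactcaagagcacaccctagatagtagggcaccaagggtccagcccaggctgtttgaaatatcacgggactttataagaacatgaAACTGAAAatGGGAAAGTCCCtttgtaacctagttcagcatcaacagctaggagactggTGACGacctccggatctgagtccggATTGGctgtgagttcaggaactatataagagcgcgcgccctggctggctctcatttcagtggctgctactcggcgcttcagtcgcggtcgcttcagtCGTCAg
Tap1, chr17:34187306-34187605, plus strand: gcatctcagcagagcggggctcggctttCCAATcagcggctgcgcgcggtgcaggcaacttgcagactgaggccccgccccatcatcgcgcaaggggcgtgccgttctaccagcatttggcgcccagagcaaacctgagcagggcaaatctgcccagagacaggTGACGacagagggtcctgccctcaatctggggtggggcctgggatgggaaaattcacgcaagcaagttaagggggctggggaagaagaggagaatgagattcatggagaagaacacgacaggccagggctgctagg
Tapbp, chr17:33919228-33919527, plus strand: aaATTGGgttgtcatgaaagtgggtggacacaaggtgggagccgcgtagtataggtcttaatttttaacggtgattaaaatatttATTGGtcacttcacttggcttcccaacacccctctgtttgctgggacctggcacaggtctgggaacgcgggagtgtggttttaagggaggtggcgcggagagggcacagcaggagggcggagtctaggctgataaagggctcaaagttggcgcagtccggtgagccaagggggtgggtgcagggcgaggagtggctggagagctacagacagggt
Psmb8, chr17:34197945-34198244, plus strand: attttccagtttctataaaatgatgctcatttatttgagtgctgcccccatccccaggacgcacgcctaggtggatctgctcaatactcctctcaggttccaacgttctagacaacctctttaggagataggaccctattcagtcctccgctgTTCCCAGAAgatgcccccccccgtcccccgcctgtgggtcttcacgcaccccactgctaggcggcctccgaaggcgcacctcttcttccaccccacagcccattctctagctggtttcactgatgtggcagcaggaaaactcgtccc
Psmb10, chr8:105938343-105938642, minus strand: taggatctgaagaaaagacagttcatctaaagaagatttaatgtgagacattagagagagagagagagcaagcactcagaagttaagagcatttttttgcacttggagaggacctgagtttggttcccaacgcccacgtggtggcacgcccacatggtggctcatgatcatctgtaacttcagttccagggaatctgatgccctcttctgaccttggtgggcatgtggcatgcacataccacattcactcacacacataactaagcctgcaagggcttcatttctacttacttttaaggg

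The windows of H2-K1, H2-D1 and B2m each held matches to the first 4 of these motifs. The X2 letters TGACG were found in 5 of the 8 windows and in 21% of 27025 windows of all genes, and CCAAT in 6 of the 8 and in 37.9% of all windows. The NF-kB-like motif and AANNGAAA were each found in 3 of the 8, against 20.5% and 24.2% of all windows. The Tap1 and Psmb9 windows held TGACG and CCAAT at the same sites of their shared bases, so each site was counted under both genes. The windows of Psmb5 and Psmb6, which encode subunits that the immunoproteasome ones replace, also held TGACG. That of Psmb6 held AANNGAAA as well, and neither held CCAAT, the NF-kB-like motif or TTCNNNGAA. The Psmb8 window held only TTCNNNGAA (8.47% of all windows), the Tapbp window only CCAAT, and the Psmb10 window none of the 5. These are matches of letters, and binding was not measured.

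All 10 class I genes were expressed in both groups. Levels are given as CPM, each count as a share of the TMM-scaled library total, and between genes they are compared per kilobase of the longest coding transcript in GENCODE M21. On that scale B2m was highest, with 2479 ± 121 CPM per kilobase in Veh (SD, n = 3) and 2507 ± 136 in GSK. H2-K1 followed with 1124 ± 36.8 in Veh and 1063 ± 49.0 in GSK, and H2-D1 with 828 ± 16.8 and 807 ± 18.3. Psmb8 was the highest of the immunoproteasome genes, at 329 ± 6.62 in Veh and 372 ± 8.15 in GSK. Tap1 came next (184 ± 6.00 in Veh), followed by Psmb9 (140 ± 10.3), Tapbp (130 ± 7.35), Tap2 (97.4 ± 2.32), Psmb10 (85.9 ± 4.89) and Nlrc5 (74.4 ± 4.54). In Veh the ranges of neighbours in this order overlapped only for Psmb9 and Tapbp. In GSK the order of that pair was turned, with 144 ± 6.27 for Tapbp and 136 ± 7.57 for Psmb9, and so was that of Psmb10 (100.1 ± 3.37) and Tap2 (96.8 ± 4.90), and in each pair the ranges overlapped. The order was the same when the union of all exons was used as the length.

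**Figure D1:**
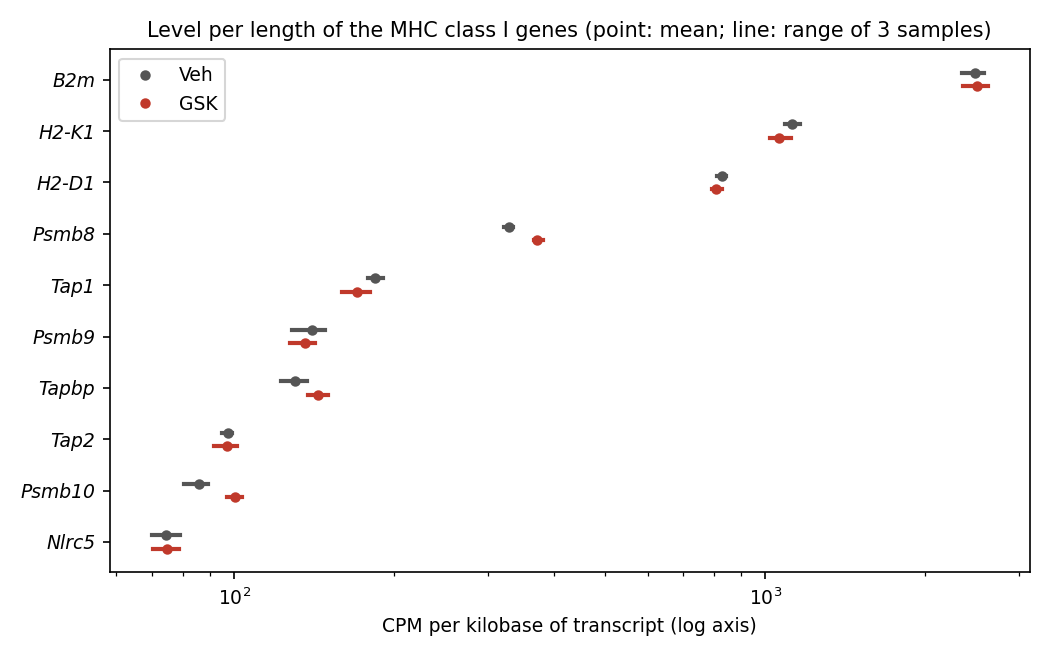
RNA level of each MHC class I gene in CPM per kilobase of transcript (log axis), with the mean as a point and the range of 3 samples as a line, Veh in grey and GSK in red. B2m is highest at 2479 in Veh and Nlrc5 lowest at 74.4, and the Veh and GSK lines do not overlap for Psmb8, Psmb10 and Tapbp.

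Of the 10 genes, Psmb8, Psmb10 and Tapbp rose with GSK, by 1.13-fold, 1.17-fold and 1.11-fold, and the other 7 did not pass the test. The quasi-likelihood test of edgeR was used, adjusted by Benjamini-Hochberg over the 11698 genes left by the filter on low counts, all 10 members among them, and a gene passed at an adjusted p under 0.05. Among all genes tested, 16.6% passed as higher in GSK and 15.5% as lower, so 3 of 10 higher and 0 of 10 lower is to be read against those shares. None of the 10 was also past a fold change of 1.5, where 2.22% of all genes were higher and 4.09% lower. The median log2 fold change was -0.0027 over the 10 genes and -0.0039 over all genes tested. The 95% intervals of the 10 fold changes all lay between 0.865 (Tap1) and 1.26 (Psmb10). Non-overlapping groups with GSK higher were found for 3 of the 10 members, against 23.7% of all genes tested, and in either direction also for 3, against 46.7%. At an unadjusted p under 0.05, 1 member was lower, Tap1, where 5026 of the 11698 genes reached that threshold in either direction. DESeq2 and the replicate block also gave 3 genes higher and 0 lower. Leaving out single samples gave 2 or 3 higher, and leaving out both samples of replicate 3 gave 1, Psmb8.

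**Figure D2:**
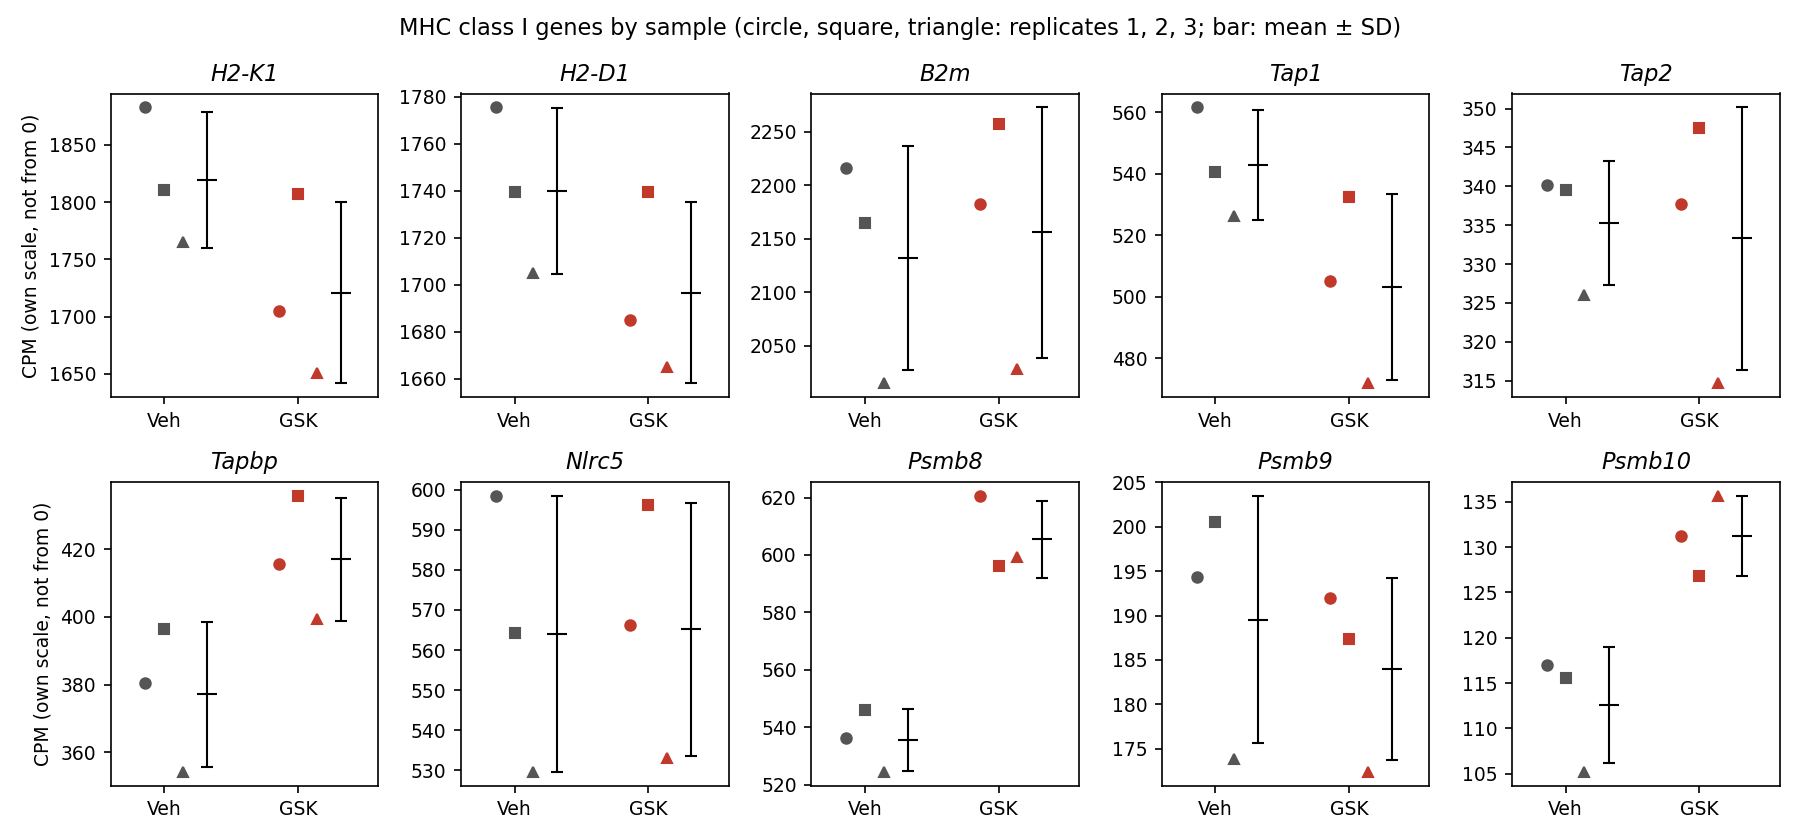
CPM of each MHC class I gene in each sample, with circles, squares and triangles for replicates 1, 2 and 3, Veh in grey and GSK in red, and the mean ± SD beside them. Each panel has its own axis that does not start at 0. All GSK samples lie above all Veh samples for Psmb8, Psmb10 and Tapbp, and the groups overlap for the other 7 genes.

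Among the heavy and light chains of the class I molecule, no difference between GSK and Veh passed the test. H2-K1 (Entrez gene 14972, chr17:33996012-34000619), the K heavy chain, had 1883, 1810 and 1765 CPM in the Veh samples and 1705, 1807 and 1651 CPM in the GSK samples. Its GSK samples of replicates 1 and 3 lay below all Veh samples, and that of replicate 2 among them. The fold change was 0.946 (95% interval 0.895 to 1.00, adjusted p = 0.12 from edgeR). H2-D1 (Entrez gene 14964, chr17:35263094-35267497), the D heavy chain, had 1775, 1739 and 1705 CPM in Veh and 1685, 1740 and 1665 CPM in GSK. Its groups overlapped, with a fold change of 0.975 (0.932 to 1.02, adjusted p = 0.39 from edgeR). B2m (Entrez gene 12010, chr2:122147687-122153082), the light chain of the class I molecule, had 2216, 2165 and 2015 CPM in Veh and 2182, 2257 and 2028 CPM in GSK. Its fold change was 1.01 (0.945 to 1.08, adjusted p = 0.81 from edgeR), and replicate 3 was lowest in both groups. The B2m region lies within that of Patl2, which had at most 5 counts in any sample.

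Heavy chain genes resemble each other, which can divert or share reads. Of the stretches of 150 bases, the read length, in the longest coding transcript of H2-D1, 1.79% also occur in a transcript of H2-Q1, which had at most 20 counts in any sample. No stretch of this length in H2-K1 occurs in a transcript of another gene.

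In the transporter and its loading factor, Tapbp rose and the TAP subunits did not pass. Tapbp (Entrez gene 21356, chr17:33919478-33929290) had 381, 396 and 354 CPM in Veh and 416, 436 and 400 CPM in GSK. Every GSK sample was above every Veh sample, though the lowest GSK sample was close to the highest Veh sample. Its fold change was 1.11 (1.03 to 1.19, adjusted p = 0.035 from edgeR). Gm19412, a predicted gene whose symbol is absent from the deposited counts, overlaps Tapbp. The call was lost when Veh replicate 1, Veh replicate 3, GSK replicate 1 or GSK replicate 2 was left out, with an adjusted p of up to 0.16 in edgeR, and it was 0.087 without both samples of replicate 3.

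Tap1 (Entrez gene 21354, chr17:34187556-34197225) had 562, 541 and 526 CPM in Veh and 505, 532 and 472 CPM in GSK. As for H2-K1, the GSK sample of replicate 2 lay among the Veh samples and the other 2 lay below them. The fold change was 0.927 (0.865 to 0.993, adjusted p = 0.086 from edgeR). Without GSK replicate 2, both genes passed as lower in edgeR, Tap1 with a log2 fold change of -0.15 (adjusted p = 0.012) and H2-K1 with -0.12 (adjusted p = 0.015). Tap2 (Entrez gene 21355, chr17:34204479-34216321) had 340.2, 340 and 326 CPM in Veh and 338, 348 and 315 CPM in GSK, with a fold change of 0.994 (0.930 to 1.06, adjusted p = 0.90 from edgeR). The GSK samples of Tap2 spanned the Veh samples on both sides.

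Of the immunoproteasome subunits, Psmb8 and Psmb10 rose and Psmb9 did not pass. Psmb8 (Entrez gene 16913, chr17:34198195-34201454), which encodes the chymotrypsin-like subunit, had 536, 546 and 524 CPM in Veh and 621, 596 and 599 CPM in GSK. The gap between the groups was wider than the range within either, and the fold change was 1.13 (1.07 to 1.19, adjusted p = 0.0024 from edgeR). It passed in edgeR with any single sample left out (adjusted p from 0.0013 to 0.024) and without both samples of replicate 3 (0.022). Psmb10 (Entrez gene 19171, chr8:105935728-105938392), which encodes the trypsin-like subunit, had 117, 116 and 105 CPM in Veh and 131, 127 and 136 CPM in GSK. The groups did not overlap, and the fold change was 1.17 (1.08 to 1.26, adjusted p = 0.0060 from edgeR). It too passed with any single sample left out (0.0024 to 0.036), but not without both samples of replicate 3 (adjusted p = 0.082 from edgeR).

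Psmb9 (Entrez gene 16912, chr17:34182030-34187330), the subunit that replaces the caspase-like activity, had 194, 200.5 and 174 CPM in Veh and 192, 187 and 172 CPM in GSK. The groups overlapped, with a fold change of 0.970 (0.889 to 1.06, adjusted p = 0.61 from edgeR).

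Nlrc5 (Entrez gene 434341, chr8:94434335-94527272), the class I transactivator, had 598, 564 and 530 CPM in Veh and 566, 596 and 533 CPM in GSK. The groups covered nearly the same range, and the fold change was 1.00 (0.928 to 1.08, adjusted p = 0.97 from edgeR). Its region overlaps the annotated genes 9330175E14Rik, Gm51584 and Mir7072, whose symbols are absent from the deposited counts.

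Psmb9, Tap1, Psmb8 and Tap2 follow each other on chromosome 17, with 225 bases between Psmb9 and Tap1, 969 between Tap1 and Psmb8 and 3024 between Psmb8 and Tap2. Psmb9 and Tap1 are transcribed away from each other, and Psmb8 and Tap2 in the same direction as Tap1. Of these 4 neighbours, Psmb8 passed the test. The ratio of Psmb8 to Tap1 counts was 0.955, 1.01 and 0.996 in the Veh samples and 1.23, 1.12 and 1.27 in the GSK samples. The ratio of Psmb8 to Psmb9 counts was 2.76, 2.72 and 3.02 in Veh and 3.23, 3.18 and 3.48 in GSK. In both ratios, which were chosen after their values were seen and not tested, each GSK sample was above each Veh sample. Of the protein-coding genes next to the cluster, H2-Ob, which encodes a chain of the class II modulator H2-O, was lower in GSK (log2 fold change -1.19, standard error 0.27, adjusted p = 0.0048 from edgeR), and H2-DMb1 did not pass (0.11, standard error 0.29). Both had few counts: H2-Ob had 88, 51 and 78 in the Veh samples and 32, 41 and 25 in the GSK samples, and H2-DMb1 had 20 to 27 per sample.

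**Figure D3:**
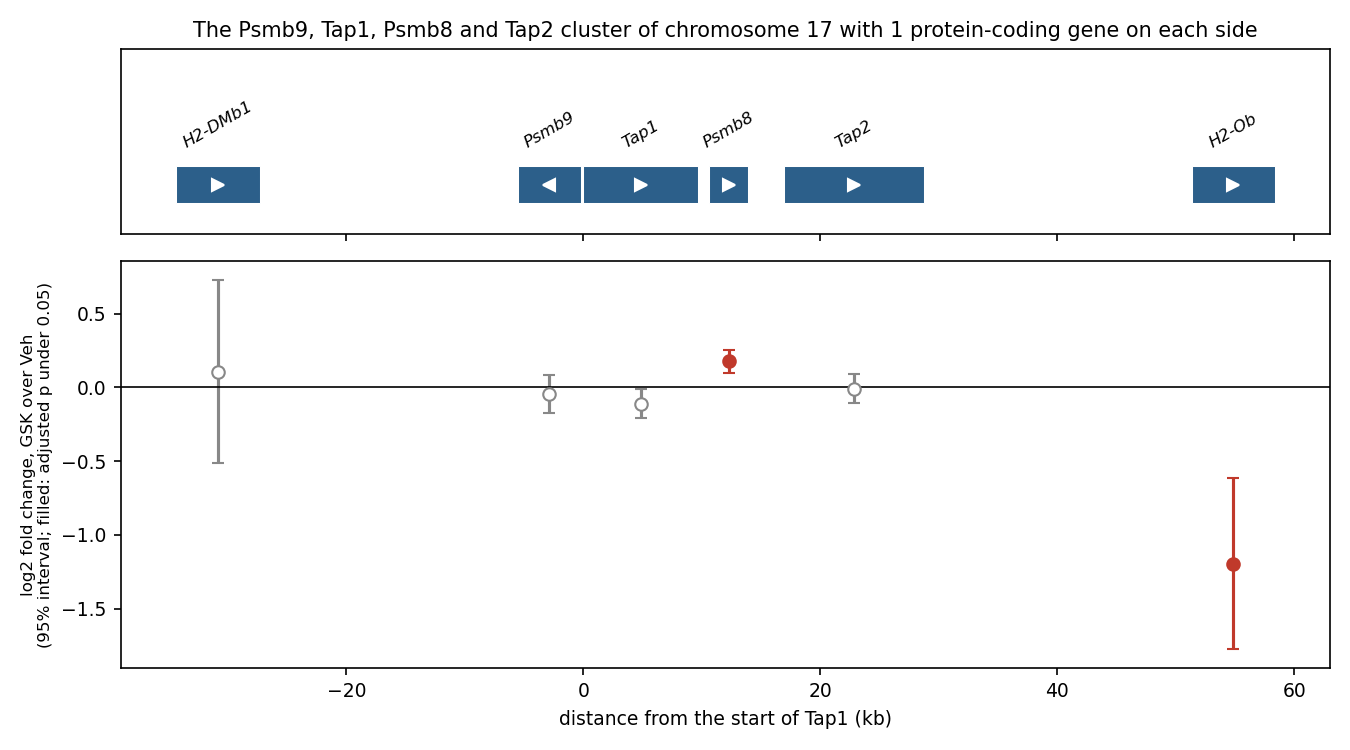
The Psmb9, Tap1, Psmb8 and Tap2 cluster with 1 protein-coding gene on each side, by distance from the start of Tap1 in kb (white arrowheads give the direction of transcription), and below it the log2 fold change of each gene, GSK over Veh, with its 95% interval. Within the cluster Psmb8 is the filled point above 0 at 0.18, between Tap1 at -0.11 and Tap2 at -0.0084, and H2-Ob lies at -1.19.

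The immunoproteasome subunits were next set against the constitutive subunits that they replace, within each sample, where library scaling has no effect. All 3 constitutive catalytic subunits rose: Psmb5 from 90.7 ± 7.07 to 103 ± 4.13 CPM (SD, n = 3, adjusted p = 0.029 from edgeR), Psmb6 from 130.2 ± 2.84 to 153 ± 8.73 CPM (0.0037) and Psmb7 from 125 ± 8.06 to 153 ± 10.2 CPM (0.0035). Among all genes tested, 16.6% passed as higher. The Psmb5 call was lost when any of 4 single samples was left out, with an adjusted p of up to 0.13 in edgeR. It was also lost among the other alternative fits, with an adjusted p of up to 0.17 in edgeR or DESeq2. Of the 150-base stretches of the Psmb5 transcript, 7.07% occur in that of the pseudogene Gm3375. The ratio of Psmb8 to Psmb5 counts was 6.41, 5.58 and 5.78 in Veh and 6.01, 6.02 and 5.58 in GSK, and that of Psmb10 to Psmb7 was 1.01, 0.890 and 0.807 in Veh and 0.875, 0.881 and 0.829 in GSK. The groups overlapped in both ratios (p = 1 and 0.70 by an exact permutation test, two-sided). The ratio of Psmb9 to Psmb6 was 1.52, 1.5 and 1.35 in Veh and 1.26, 1.30 and 1.06 in GSK. Here every GSK sample was below every Veh sample, with a mean difference of -0.27 on the log2 scale (p = 0.10 by the exact permutation test, the smallest that 3 samples against 3 allow, and 0.25 after adjustment over the 5 ratios computed).

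Of the other 2 ratios, that of Tap1 to Tap2 was 1.65, 1.59 and 1.61 in Veh and 1.5, 1.53 and 1.5 in GSK. Again all GSK samples were below all Veh samples, by -0.10 on the log2 scale (p = 0.10 by the exact permutation test, adjusted 0.25). The ratio of H2-K1 to H2-D1 was 1.06, 1.04 and 1.04 in Veh and 1.01, 1.04 and 0.991 in GSK, and the groups overlapped (p = 0.20 by the exact permutation test, adjusted 0.33).

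**Figure D4:**
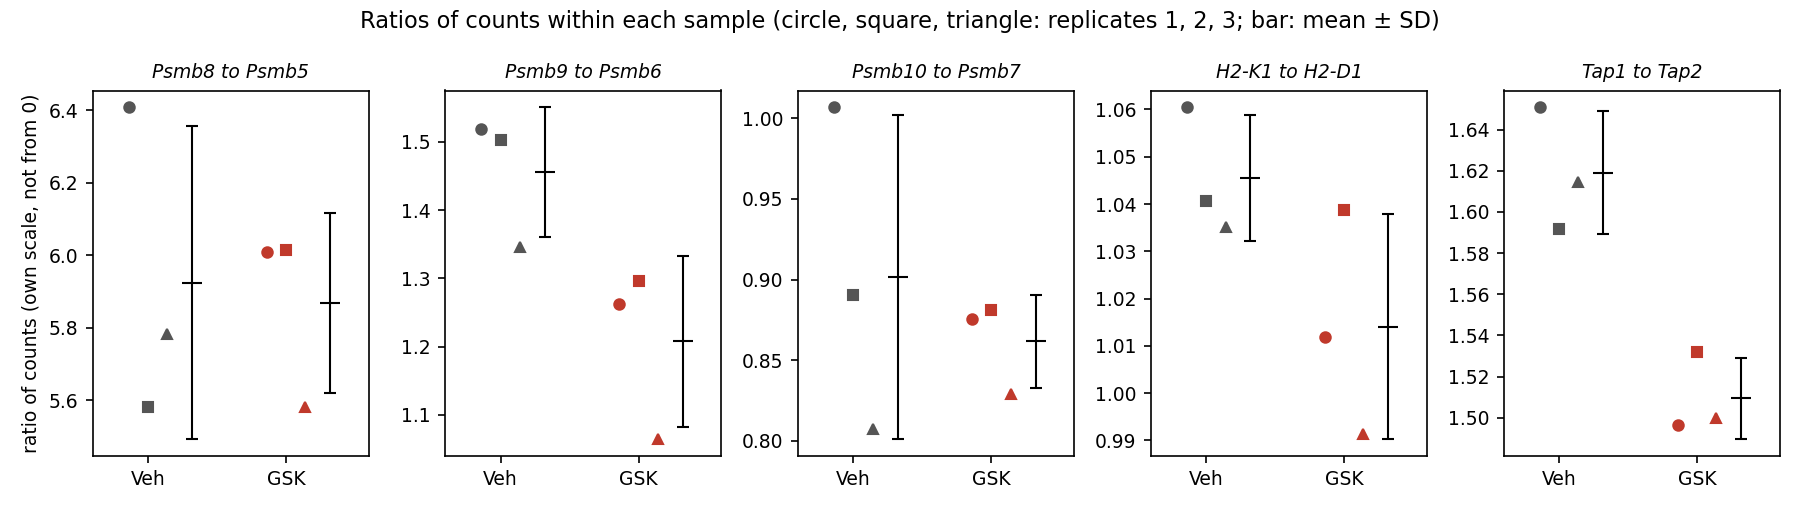
Ratio of the counts of 2 genes within each sample, with circles, squares and triangles for replicates 1, 2 and 3, Veh in grey and GSK in red, and the mean ± SD beside them, each panel on its own axis that does not start at 0. For Psmb9 to Psmb6 and Tap1 to Tap2 all GSK samples lie below all Veh samples, and for the other 3 pairs the groups overlap.

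Around the 10 members, the partners of class I assembly in the endoplasmic reticulum were mostly higher in GSK. Of 9 genes listed for peptide loading and trimming, 5 rose, 1 fell and 3 did not pass, and their median log2 fold change was 0.19. Among all genes tested, 16.6% passed as higher and 15.5% as lower. Calr, the chaperone calreticulin of the loading complex, had a mean of 681 ± 16.3 CPM in Veh and 901 ± 83.0 CPM in GSK (0.40 ± 0.058 on the log2 scale with its standard error, adjusted p = 6.1e-04 from edgeR). Pdia3 (ERp57, 0.21), Canx (calnexin, 0.19) and Erap1 (the peptidase that trims peptides to length, 0.24) also rose in log2 fold change, as did Hspa5, the general chaperone BiP (0.45). Lnpep, an endosomal aminopeptidase, fell by 0.25 and did not pass without Veh replicate 1 (adjusted p = 0.063 from edgeR). Tapbpl, a relative of tapasin, had a log2 fold change of 0.17 and did not pass (0.052).

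Of the proteasome regulators most were higher, and the cytosolic peptidases moved in both directions. Of 5 genes for proteasome activators and the assembly factor, 4 rose and 1, Psme4, did not pass, with a median log2 fold change of 0.26. The counts of both lists stand beside 16.6% of all genes tested that passed as higher and 15.5% as lower. Psme1 and Psme2, which form the interferon-inducible activator PA28, went from 270.0 ± 11.9 to 303 ± 6.00 CPM and from 178 ± 12.5 to 213 ± 5.92 CPM, and Psme1 did not pass without Veh replicate 3 (0.058) or GSK replicate 1 (0.062). The Psme1 call was also lost among the other alternative fits, with an adjusted p of up to 0.088 in edgeR or DESeq2. Psme3, the nuclear PA28 gamma, rose by 0.39 and Pomp, which assembles new proteasomes, by 0.30 on the log2 scale. Of 7 cytosolic peptidases tested, Tpp2 (0.27), Thop1 (0.49) and Dpp3 (0.24) rose in log2 fold change, Npepps fell by 0.31 and 3 did not pass.

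Among the remaining class I heavy chains, those that passed were lower in GSK. Of 19 other class I and class I-like heavy chain genes listed, 15 were matched by symbol and 11 were tested, of which 0 rose, 5 fell and 6 did not pass (median log2 fold change -0.16). Among all genes tested, 16.6% passed as higher and 15.5% as lower. Mr1, which presents microbial metabolites, had a mean of 18.9 ± 1.21 CPM in Veh and 12.5 ± 1.05 CPM in GSK (-0.60 ± 0.097 on the log2 scale, adjusted p = 6.2e-04 from edgeR), past the fold change of 1.5. The other 4 were H2-T23 (Qa-1, the ligand of CD94/NKG2 receptors, log2 fold change -0.24), H2-T22 (-0.22), H2-Q6 (-0.45) and the lipid-presenting Cd1d1 (-0.46), with adjusted p-values between 0.021 and 0.049 in edgeR. Each of these 4 lost its call when any of 3 or 4 single samples was left out, H2-T23 also with no filter on low counts (0.064), and Cd1d1 also in DESeq2 (0.085), with the replicate block (0.090) and without both samples of replicate 3 (0.15). Of these 4 genes, between 0.831% and 6.62% of the 150-base stretches are shared with another gene's transcript. The count of 5 was 1 without GSK replicate 1 and 2 without Veh replicate 1, Veh replicate 2 or GSK replicate 3, and Mr1 passed at the adjusted p in every fit run. Its size fell short of 1.5-fold without Veh replicate 1, Veh replicate 3 or GSK replicate 3 (log2 fold change -0.54 without the last) and without both samples of replicate 3 (-0.52).

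**Figure D5:**
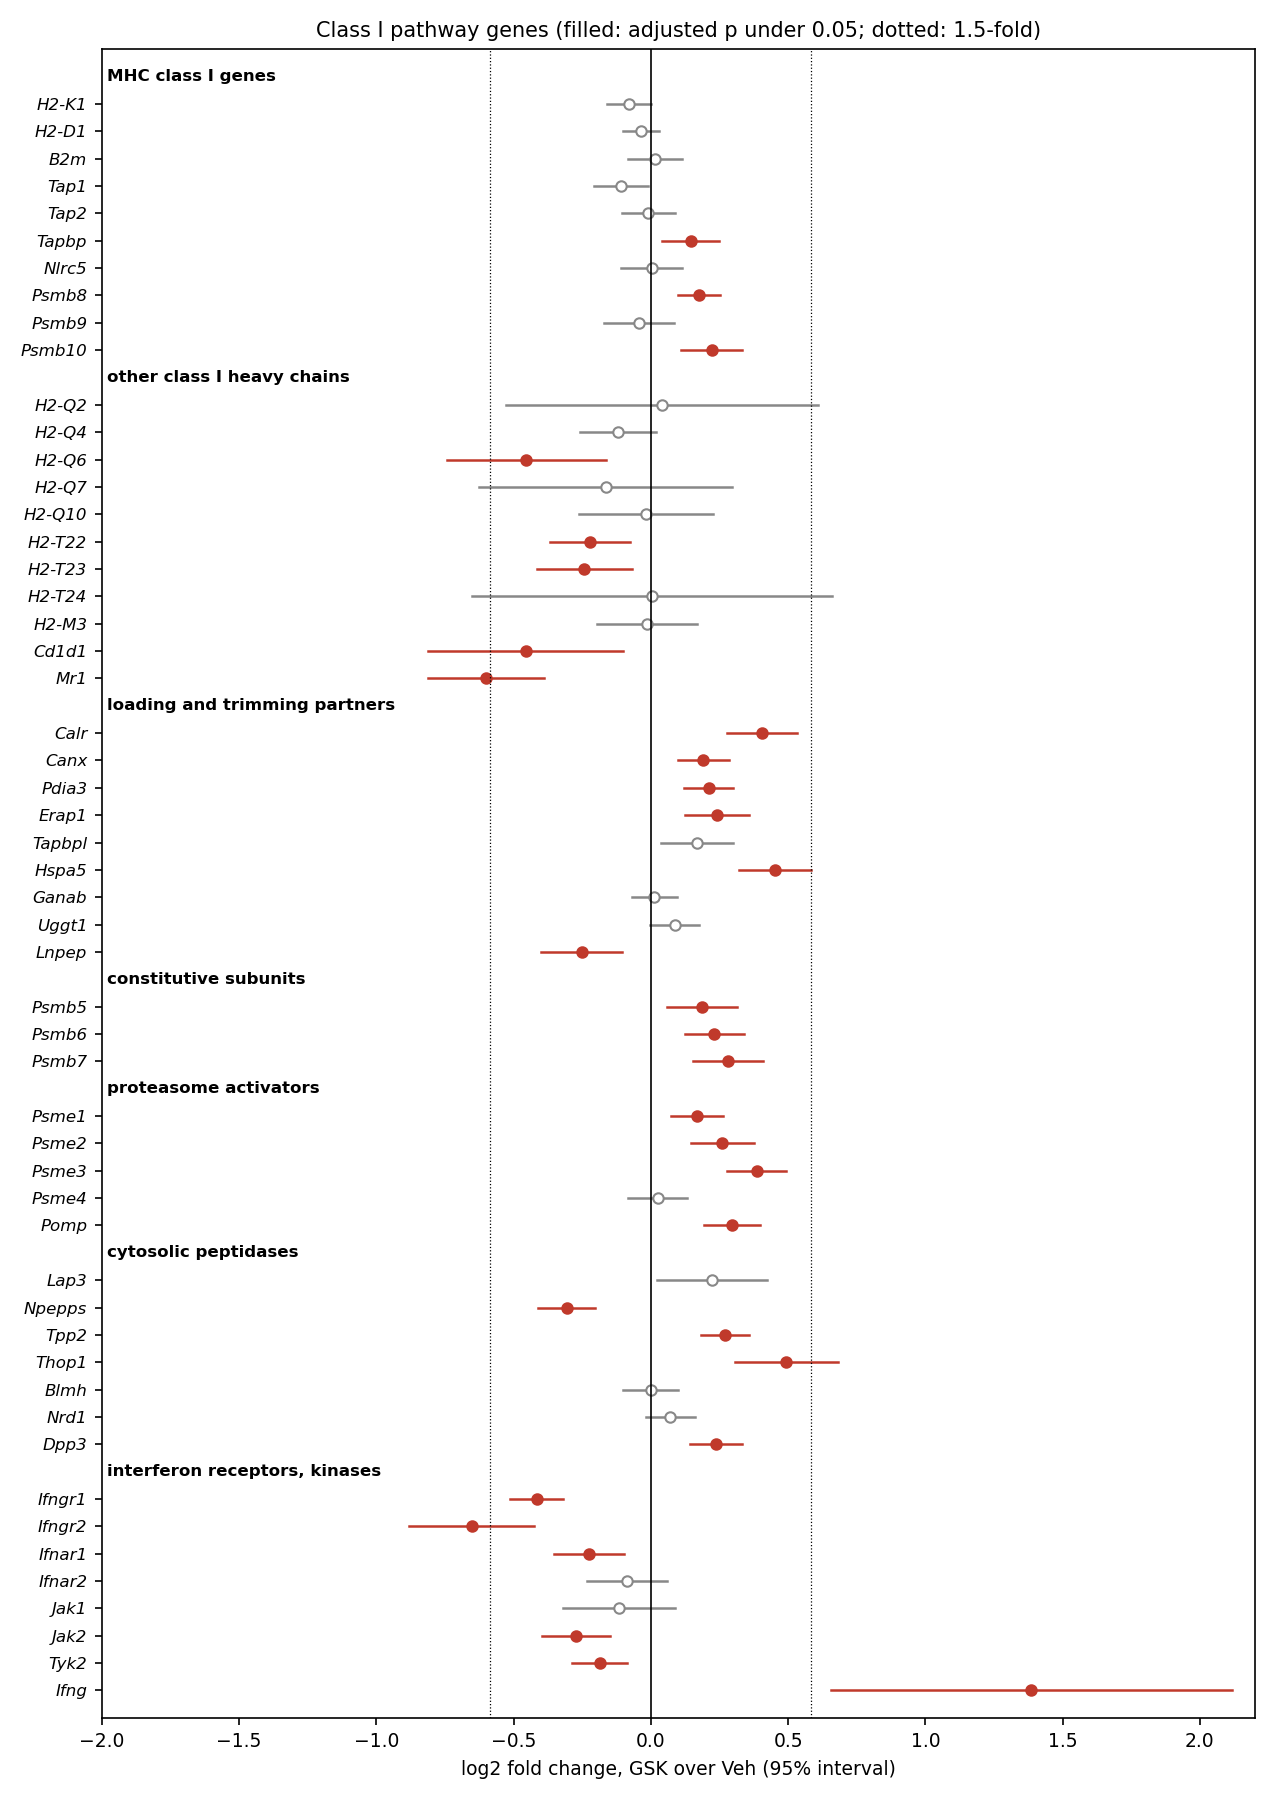
Log2 fold change, GSK over Veh, of the MHC class I genes and of 6 lists of related genes, with 95% intervals (lines), filled red points for an adjusted p under 0.05 and dotted lines at a 1.5-fold change. The 3 immunoproteasome and tapasin genes that passed lie between 0.15 and 0.22, the chaperones Calr and Hspa5 at 0.40 and 0.45, and the interferon gamma receptor chains Ifngr1 and Ifngr2 at -0.42 and -0.65.

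Upstream of these genes, the interferon receptors and kinases were mostly lower. Of 8 genes for interferon receptors, their kinases and interferon gamma, 5 fell, 1 rose and 2 did not pass. Among all genes tested, 15.5% passed as lower and 16.6% as higher. Ifngr1, the ligand-binding chain of the interferon gamma receptor, had a mean of 715 ± 27.9 CPM in Veh and 536 ± 28.4 CPM in GSK (-0.42 ± 0.044 on the log2 scale, adjusted p = 3.3e-05 from edgeR), and Ifngr2 fell by 0.65, Jak2 by 0.27, Ifnar1 by 0.23 and Tyk2 by 0.19 on the log2 scale, of which Ifnar1 did not pass without GSK replicate 1 (0.063) or without both samples of replicate 3 (0.087). Ifng, interferon gamma itself, was the 1 that rose (log2 fold change 1.39), and its adjusted p was 0.051 in edgeR without GSK replicate 3 and 0.074 without both samples of replicate 3. Of 15 regulators of class I genes, 2 rose (Irf8 and Nfyc), 3 fell and 10 did not pass, shares near the 16.6% and 15.5% of all genes. Nfkb1, which encodes the p105 and p50 forms of NF-kB, fell from 426 ± 3.91 to 347 ± 3.83 CPM (log2 fold change -0.29, adjusted p = 8.6e-05 from edgeR). Creb1 (-0.25) and Rfxank (-0.29) also fell, Rfxank not in DESeq2 (0.061) and not when any of 4 single samples was left out. Among the other alternative fits, Rfxank had an adjusted p of up to 0.16 from edgeR. Nfyc rose by 0.21 on the log2 scale (adjusted p = 0.014 from edgeR), and Rfx5, Rfxap, Nfya and Nfyb did not pass. Irf8 and Nfyc both lost their calls without Veh replicate 3, without GSK replicate 1 and without both samples of replicate 3. Irf1, a mediator of the interferon gamma response, had a log2 fold change of 0.017 and did not pass (adjusted p = 0.86 from edgeR).

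Of 14 interferon gamma induced genes (Irf1 among them), 6 rose and 0 fell, against 16.6% and 15.5% of all genes tested. Their median log2 fold change was 0.16, and 2 passed without Veh replicate 3 and likewise without GSK replicate 1. Of 13 type I interferon induced genes tested, 0 passed in edgeR (1, Usp18, at an unadjusted p under 0.05), 1 in DESeq2, 9 with the replicate block and 7 without both samples of replicate 3. Over all genes, 1941 of 11698 passed as higher in edgeR. The number was 1677 in DESeq2, 1703 with the replicate block and 1072 without both samples of replicate 3. The log2 fold changes of the type I interferon induced genes were all above 0, from 0.042 to 0.92 with a median of 0.48. These genes differed by replicate: their summed level was 514, 527 and 350 CPM in the Veh samples and 608, 680 and 448 CPM in the GSK samples, lowest in replicate 3 of each group. All 10 class I members were likewise lowest in replicate 3 of Veh and 8 of 10 in replicate 3 of GSK, and 8 were so in both groups, as were 13.9% of all genes tested. Psmb8 and Psmb10 were the exceptions in GSK. What differed in the replicate 3 cultures was not tested.

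The 5 genes outside the lists whose log2 CPM followed the mean of the 10 members most closely over the 6 samples were Gbp9 (Pearson r = 0.99), Helz2 (0.99), Tusc1 (0.99), Adar (0.99) and Mob1b (0.99), the best of 11569 genes. Gbp9 had 161, 160.3 and 112 CPM in Veh and 166, 181 and 132 CPM in GSK, and none of the 5 passed the test between groups. Tusc1 had only 0.526 to 1.01 CPM, so counting error weighs more on its correlation than on that of Gbp9.

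The samples held 18288447 to 19846720 counts, of which the 10 members made up 0.789% to 0.865%, so counting error of these genes is small. Of 10 CD8 T cell markers, Cd8a had 9427 to 10964 counts per sample and did not pass, 2 were higher in GSK and 5 lower, among them Cd3g (log2 fold change -0.38) and Cd5 (-0.50). Among all genes tested, 16.6% passed as higher and 15.5% as lower. Class I genes are expressed by nearly all cell types, and in bulk RNA fewer cells of a type and less RNA per cell cannot be told apart. The 10 B cell markers listed summed to between 6.41 and 8.21 CPM in Veh and 8.19 and 9.77 CPM in GSK. Of the 2 tested, Cd22 was higher (0.409 ± 0.186 CPM in Veh and 2.60 ± 0.279 CPM in GSK, adjusted p = 1.5e-04 from edgeR), and Cd79b did not pass (6.51 ± 1.02 and 4.90 ± 0.238 CPM). The 11 myeloid and dendritic markers matched by symbol summed to between 9.17 and 12.8 CPM in Veh and 6.15 and 8.65 CPM in GSK, with Csf1r at 1 to 5 counts, and none of either list was at 0 in every sample. The 10 class I members summed to between 8025 and 8603 CPM in Veh and 7971 and 8626 CPM in GSK. The part of the marker differences in the class I results was not tested.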

How the data were processed

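RNA was measured in 3 GSK and 3 Veh cultures of CD8+ T cells. Per the labels, the authors prepared poly(A)+ RNA with a stranded kit, trimmed paired reads of 150 bases with Trimmomatic, aligned them to GRCm38 with hisat2 (version 2.1.0) and counted reads per gene with HTSeq-count (version 0.11.2). The deposited values are raw counts. The annotation release and the strand setting of the counting are not given in the sources used here, so it is not known how reads of overlapping genes were assigned or whether they were left uncounted.

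Samples were grouped by their titles. The robust quasi-likelihood test of edgeR (version 4.0.16, in R version 4.3.3) was run after TMM scaling and filterByExpr, and p-values were adjusted over every tested gene by Benjamini-Hochberg. Thresholds were an adjusted p of 0.05 and, for calls by size, a fold change of 1.5, as in the study's methods. Standard errors and 95% intervals came from the test statistic. Ratios used a prior count of 0.5. DESeq2 (version 1.42.0), RLE factors, other filters, a replicate block, a test against 1.5-fold and leaving out samples were alternatives. The fit was tested on simulated data with 200 genes changed. Depth was 18288447 to 19846720 counts. No replicate pair agreed within sampling noise (chi-square per degree of freedom at least 4.08), and p-values measure the spread between these cultures.

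The members and lists were chosen with earlier results of these data known. Some genes are not reported here. Named genes were all members, list genes that passed, as far as needed, the proteasome pairs and the 5 genes with the most similar pattern. List genes that did not pass, overlapping genes and neighbours were named after their values were seen. RefSeq coordinates of GRCm38.p6 were matched by Entrez identifier, and transcripts were those of GENCODE M21. Of the marker lists, CD8, CD4, NK and erythroid markers had 2, 1, 2 and 0 genes higher and 5, 0, 0 and 0 lower, of 10, 4, 3 and 0 tested, and B cell and myeloid markers 1 and 1 higher and 0 and 2 lower, of 2 and 7. The 2 NK markers that passed were Eomes and Klre1, with log2 fold changes of 1.08 and 0.50. Eomes is not specific to NK cells here, because the paper reports that GSK raised EOMES within CD8+ T cells. Ncr1, Klra8 and Klra4, also on the NK list, had at most 1 count in any sample. Whether the share of NK cells differed was not tested. Class II genes had 1 higher and 4 lower of 10. These counts are to be read against 16.6% higher and 15.5% lower among all genes tested.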

Additional observations from a re-analysis of the deposited data

How the results depend on the processing

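The count of 3 class I members higher in GSK was also given by DESeq2, RLE factors, both other filters and the replicate block. It was 2 to 3 with single samples left out and 1 without both samples of replicate 3, an alternative chosen after seeing the data. The count of members lower was 0 to 2 with single samples left out, the 2 arising without GSK replicate 2, and 0 otherwise, and no member was past 1.5-fold in any fit, including the test against 1.5-fold. Of the members whose log2 fold change was near 0, sign changes occurred for B2m (-0.023 to 0.056 with single samples left out), Tap2 (-0.041 to 0.029, and 0.0078 without both samples of replicate 3) and Nlrc5 (-0.040 to 0.048, -0.0011 with the CPM filter and -0.0038 without both samples of replicate 3). Irf1 ranged from -0.053 to 0.068 and was -0.017 without both samples of replicate 3. Among the ratios, Psmb8 to Psmb5 ranged from -0.054 to 0.046 and Psmb10 to Psmb7 from -0.14 to 0.023 on the log2 scale with single samples left out, and the other 3 kept their direction. The cause of these changes was not tested. Same-numbered samples deviated from their group means with correlations of -0.052, -0.081 and 0.16 across genes. These do not establish a pairing, and only for replicate 3 did both samples correlate best with their own number. With the replicate block, 3 members passed as higher (Psmb8, Psmb10 and Tapbp with adjusted p-values of 0.011, 0.019 and 0.027 from edgeR), the ratio differences were -0.012, -0.27, -0.060, -0.044 and -0.10, and the type I interferon induced genes that passed went from 0 to 9, with 1703 genes higher and 1600 lower in all against 1941 and 1819. Over all genes tested, those counts were 1288 and 1281 without GSK replicate 1 and 1072 and 1106 without both samples of replicate 3, but 2090 and 2013 without GSK replicate 2. Between GSK replicates 2 and 3 the chi-square per degree of freedom was 9.42, against 4.08 to 4.84 for the other pairs of one group. For genes with few counts, such as H2-DMb1 with 20 to 27 counts per sample, counting error also limits what could be detected.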
